A study of Mus musculus with 18 samples.

Results

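Genes of the integrated stress response and of amino acid supply were followed across 18 RNA sequencing libraries of mouse neonatal ventricular cardiac fibroblasts (NVCFs). The set held 31 genes, taken from the expression table by symbol, of 18264 genes listed. All 31 passed the filter on low values (a mean of at least 1 FPKM) in both arms of the study. By role there were 7 transcription factors and regulators, 6 stress effectors, 7 enzymes of serine and one-carbon metabolism, 4 other amino acid and linked enzymes, and 7 amino acid transporters.

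In the integrated stress response, kinases that sense starvation, misfolded protein, heme shortage or viral RNA phosphorylate the translation factor eIF2. Most translation then slows while the mRNA of the transcription factor ATF4 is translated more, and ATF4 with its C/EBP partners switches on genes for amino acid synthesis, amino acid uptake and stress damping. Because ATF4 is controlled largely at translation, its mRNA level is only one view of the pathway. In fibroblasts, serine and glycine made by these enzymes feed collagen, which is rich in glycine, and one-carbon units for nucleotides.

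The study asked how Foxm1, a forkhead transcription factor best known for cell cycle genes, acts in heart remodelling. There were 6 groups of 3 libraries. In the knockdown arm, the si-Foxm1+Ang-II group had siRNA against Foxm1 plus angiotensin II, a peptide hormone that drives fibrosis and hypertrophy, the Ang-II group had the hormone, the si-Foxm1 group had the Foxm1 siRNA, and the si-NC group was the negative control. In the overexpression arm, OE-Foxm1 cells overexpressed Foxm1 and OE-NC was its control. Whether cells of the Ang-II group had a control siRNA as well is not stated in the labels, nor are the vector, the dose, the time, or whether the 3 libraries of a group came from separate cultures. The p-values therefore measure the spread between these libraries, which may be technical. If Ang-II cells had no control siRNA, comparisons with that group would also differ by transfection.

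Libraries held 14988993 to 19343343 counted fragments, recovered from the FPKM values, and OE-NC libraries were the smallest. The lowest count of a member in any library was 291 fragments. Levels are in FPKM, which divides fragments by gene length and by the library total, so they can be set side by side between genes. Each fold change is log2 of FPKM + 1 in 3 libraries against 3 and is followed by its standard error, and a gene was called at a Benjamini-Hochberg adjusted p under 0.05 in limma. This scale understates the change of genes with low FPKM.

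Foxm1 itself had 6.06, 5.13 and 6.71 FPKM in si-Foxm1 libraries, against 10.4, 9.64 and 10.3 FPKM in si-NC libraries. It had 3.55, 3.36 and 3.03 FPKM in si-Foxm1+Ang-II libraries, against 4.23, 4.03 and 5.65 FPKM in Ang-II libraries. Overexpression gave 399, 480.0 and 487 FPKM in OE-Foxm1 libraries, against 15.7, 17.1 and 17.1 FPKM in OE-NC libraries. The groups of each pair did not overlap, in the direction their labels state, and Foxm1 was also lower in every Ang-II library than in every si-NC library.

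The labelled cell type was checked by marker genes. All 9 fibroblast markers were detected, with a summed level of 3674 to 3770 FPKM in si-Foxm1+Ang-II, 3752 to 3864 FPKM in Ang-II, 2752 to 2861 FPKM in si-Foxm1 and 2808 to 2964 FPKM in si-NC, and of 2986 to 3036 FPKM in OE-Foxm1 against 2606 to 2725 FPKM in OE-NC. All 12 cardiomyocyte markers were detected too, with a sum of 4815 to 4946 FPKM in si-Foxm1+Ang-II, 8984 to 9815 FPKM in Ang-II, 6276 to 6695 FPKM in si-Foxm1 and a mean of 12520 FPKM in si-NC, and of 7609 to 7922 FPKM in OE-Foxm1 against 6744 to 7192 FPKM in OE-NC. Sums of 9 macrophage and leukocyte markers ran at 117.7 to 137.4 FPKM in si-Foxm1+Ang-II, 287 to 317 FPKM in Ang-II, 120.6 to 149.4 FPKM in si-Foxm1 and 234 to 241 FPKM in si-NC, and at 254 to 288 FPKM in OE-Foxm1 against 175 to 195 FPKM in OE-NC. Sums of 8 endothelial markers were 60.2 to 66.9 FPKM in Ang-II against 80.6 to 88.1 FPKM in si-NC, and those of 8 smooth muscle and pericyte markers 258 to 290.0 FPKM in Ang-II against 204 to 221 FPKM in si-NC. Cardiomyocyte sums, over more genes, exceeded fibroblast sums in every group. The libraries thus held RNA of marker genes of several cell types, and the summed levels moved with the groups. A sum need not follow most of its genes. The fibroblast sum was higher in Ang-II than in si-NC, though 2 of the 9 markers were called higher and 5 lower. The part of the cell mix in the results on stress response genes was not tested. In such bulk samples, fewer cells of a type and less RNA per cell cannot be told apart.

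Most of the set was called higher with angiotensin. In Ang-II against si-NC, 18 of the 31 genes rose, 3 fell and 10 were not called. Over all 11180 genes tested, 15.2% were called higher and 29.2% lower, so the members lay on the other side of the general balance. Their median log2 fold change was 0.22, against -0.03 over all genes tested. With median-of-ratios scaling 24 members rose and the same 3 fell (22.2% and 21.7% of all genes). The groups did not overlap for 24 of the 31 genes, where 52.9% of all genes tested had groups apart. Markers of the labelled cell type moved in this comparison as well: of 9 fibroblast markers 2 rose and 5 fell, with Col1a1, a collagen gene, at 0.88 ± 0.03 and Thy1, a surface marker, at -2.01 ± 0.08. Of 12 cardiomyocyte markers 1 rose and 11 fell. The part of these shifts in the members' rise was not tested.

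Among the regulators, 4 of 7 rose and 0 fell. Nupr1, a small chromatin-associated stress protein, had 251, 248 and 208 FPKM in Ang-II libraries, against 132, 122 and 118 FPKM in si-NC libraries. Every Ang-II library lay above every si-NC library, and the log2 fold change of 0.92 ± 0.06 was the largest of the set in this comparison (adjusted p = 5.24e-08). Trib3, a pseudokinase that is induced by ATF4 and restrains it, had 43.3, 47.9 and 46.9 FPKM in Ang-II libraries, against 29.6, 31.9 and 25.0 FPKM in si-NC libraries (0.66 ± 0.07, adjusted p = 5.86e-06). Ddit3, which encodes the stress transcription factor CHOP, had 23.4, 25.2 and 27.3 FPKM in Ang-II libraries, against 19.2, 20.5 and 17.9 FPKM in si-NC libraries (0.38 ± 0.07, adjusted p = 0.000608). Both genes separated the groups completely.

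Atf4, the hub of the pathway, was among the most abundant members, and its log2 fold change was smaller than those of Trib3 and Ddit3. It had 258, 258 and 257 FPKM in Ang-II libraries, against 218, 227 and 213 FPKM in si-NC libraries, a log2 fold change of 0.23 ± 0.03 (adjusted p = 1.65e-05). The other regulators were not called: Atf5, a close relative of Atf4, gave 0.00 ± 0.03, Cebpb, a C/EBP factor of inflammation and differentiation, gave -0.06 ± 0.04, and Cebpg, a C/EBP factor that pairs with ATF4, gave 0.07 ± 0.04.

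Of the 6 stress effectors, 4 rose. Stc2, a secreted glycoprotein of calcium and stress handling, had 31.8, 33.2 and 30.4 FPKM in Ang-II libraries, against 20.1, 20.5 and 19.5 FPKM in si-NC libraries (0.64 ± 0.04, adjusted p = 4.17e-08). Chac1, which breaks down glutathione, had 23.1, 22.6 and 22.3 FPKM in Ang-II libraries, against 20.0, 18.5 and 17.1 FPKM in si-NC libraries (0.28 ± 0.05, adjusted p = 0.000366). No library of one group reached into the other for either gene. Ddit4, an inhibitor of mTORC1, rose by 0.36 ± 0.04, and Eif4ebp1, which encodes the translation repressor 4E-BP1, by 0.14 ± 0.03. Vldlr, a lipoprotein receptor, went against the rest with 10.5, 11.7 and 11.4 FPKM in Ang-II libraries and 13.6, 14.4 and 13.6 FPKM in si-NC libraries, so that it fell by 0.29 on the log2 scale. Sesn2, a leucine sensor that holds back mTORC1, was not called (0.01 ± 0.08).

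The serine and one-carbon enzymes did not move as a block. Aldh1l2, the mitochondrial formyltetrahydrofolate dehydrogenase that makes NADPH, had 34.5, 31.7 and 30.8 FPKM in Ang-II libraries, against 22.0, 20.7 and 20.9 FPKM in si-NC libraries (0.59 ± 0.04, adjusted p = 2.18e-07). Psph, the phosphatase of the last step of serine synthesis, rose by 0.36 ± 0.05. Psat1, the aminotransferase of the step before it, had 34.5, 33.8 and 40.0 FPKM in Ang-II libraries, all below the 42.0, 41.5 and 41.6 FPKM of si-NC libraries (-0.21 ± 0.05, adjusted p = 0.005). Phgdh, the first enzyme of the pathway, was not called at -0.01 ± 0.03. Shmt2, which passes the carbon of serine to folate in mitochondria, and Mthfd2 and Mthfd1l, which carry that carbon on towards formate, gave 0.06 to 0.07 and were not called, though each was called higher under median-of-ratios scaling.

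All 4 of the other enzymes rose. Cth, the cystathionine lyase that yields cysteine, had 19.8, 21.3 and 18.4 FPKM in Ang-II libraries, against 11.0, 11.9 and 10.6 FPKM in si-NC libraries (0.78 ± 0.05, adjusted p = 7.76e-08). Asns, the asparagine synthetase and a classic ATF4 target, had 91.9, 88.8 and 91.7 FPKM in Ang-II libraries, against 77.6, 79.4 and 73.4 FPKM in si-NC libraries (0.24 ± 0.03, adjusted p = 3.21e-05). Both genes separated the groups. Pck2, the mitochondrial PEP carboxykinase, rose by 0.34 ± 0.04 and Gpt2, the mitochondrial alanine aminotransferase, by 0.28 ± 0.05.

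Among the transporters, 4 of 7 rose and 1 fell. Slc6a9, a glycine transporter, had 20.3, 21.2 and 19.4 FPKM in Ang-II libraries, against 11.8, 11.4 and 11.4 FPKM in si-NC libraries (0.76 ± 0.05, adjusted p = 7.37e-08). Slc1a4, a carrier of alanine, serine and cysteine, had 31.0, 31.5 and 27.9 FPKM in Ang-II libraries, against 21.7, 20.3 and 20.2 FPKM in si-NC libraries (0.52 ± 0.04, adjusted p = 7.14e-07). Neither gene had overlapping groups. Slc7a5 and Slc3a2, the light and heavy chains of the LAT1 exchanger for large neutral amino acids, rose by 0.18 ± 0.05 and 0.22 ± 0.04. The system A carrier Slc38a2 fell by 0.15 on the log2 scale, and the cationic carrier Slc7a1 (0.09 ± 0.04) and the glutamine carrier Slc1a5 (0.16 ± 0.07) were not called.

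**Figure D1:**
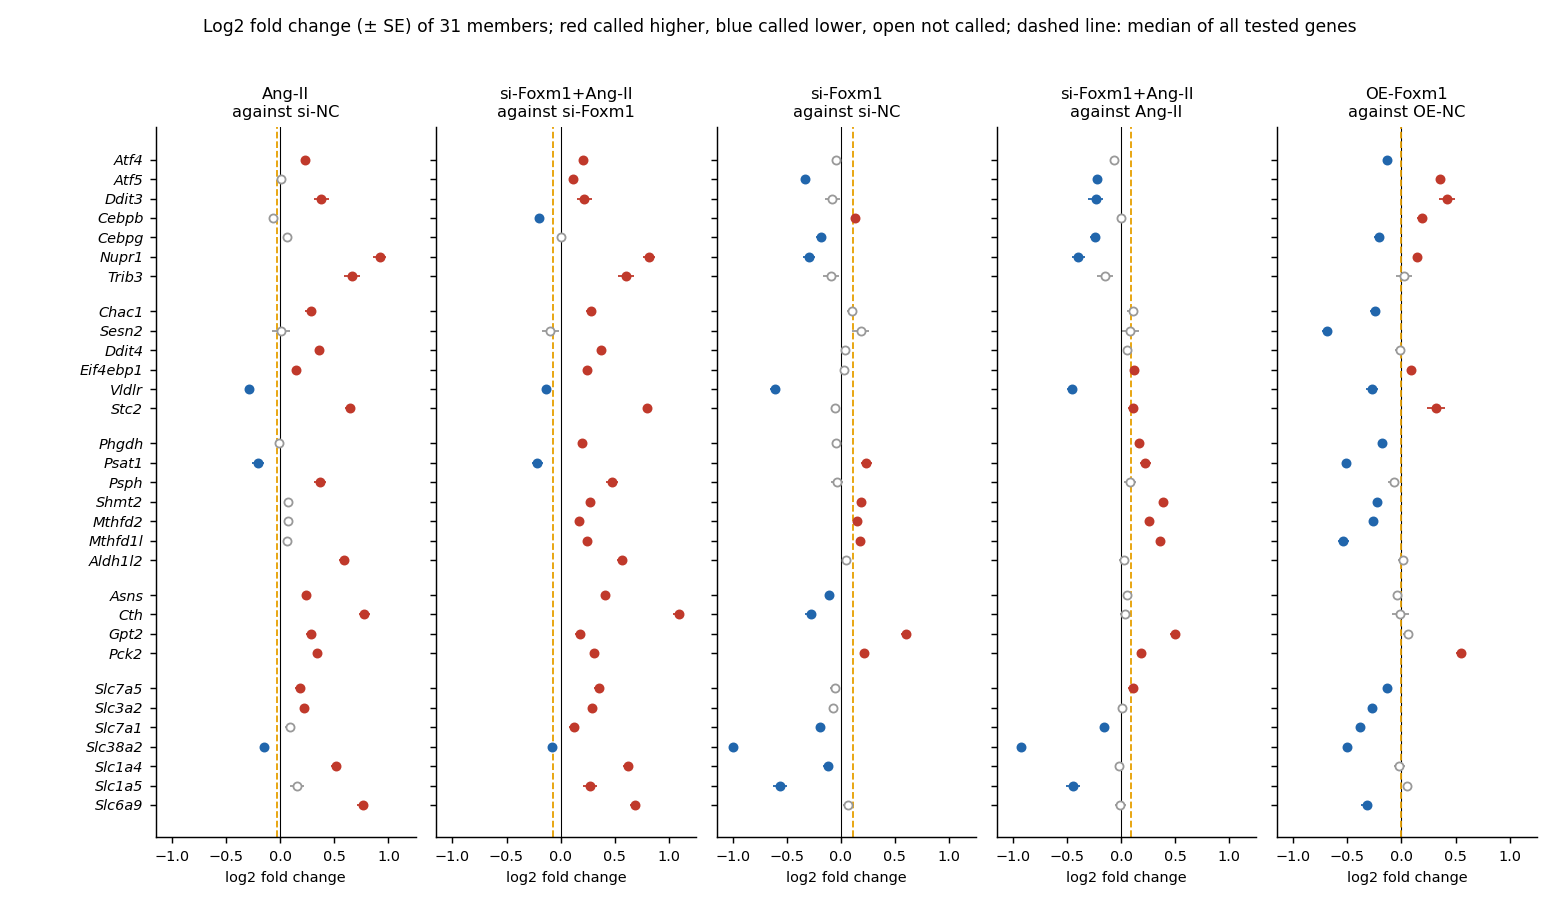
Log2 fold change of each of the 31 genes on the log2(FPKM + 1) scale, by role, in 5 comparisons: red points were called higher, blue lower and open ones not called, horizontal lines are standard errors (3 libraries against 3) and the dashed line is the median of all genes tested. In both angiotensin comparisons most points lie above 0, with Nupr1 at 0.92 and 0.82 and Cth at 0.78 and 1.09 in Ang-II against si-NC and in si-Foxm1+Ang-II against si-Foxm1, while Slc38a2 stands far below 0 in both siRNA comparisons (-0.99 without and -0.93 with the hormone).

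The same hormone was compared in cells with the Foxm1 siRNA, as si-Foxm1+Ang-II against si-Foxm1. Here 25 of the 31 genes rose, 4 fell and 2 were not called, where 12.9% of all genes tested were called higher and 34.6% lower. The members' median was 0.28, against -0.07 over all genes tested. With median-of-ratios scaling 25 were higher and 2 lower (22.1% and 20.3% of all genes). The groups did not overlap for 29 of the 31 genes and for 57.0% of all genes tested. These libraries are not those of Ang-II against si-NC, but both comparisons came from the same fit with a shared spread. All 18 genes that rose there rose here as well, as all 3 that fell there fell here. The matching share over all genes was not computed, so these repeats are not shown to be particular to the members.

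Cth moved furthest. It had 20.2, 20.3 and 20.6 FPKM in si-Foxm1+Ang-II libraries, against 8.81, 9.43 and 8.84 FPKM in si-Foxm1 libraries, a log2 fold change of 1.09 ± 0.05 (adjusted p = 4.48e-09). Nupr1 had 178, 178 and 179 FPKM in si-Foxm1+Ang-II libraries, against 101, 99.9 and 102 FPKM in si-Foxm1 libraries (0.82 ± 0.06, adjusted p = 1.58e-07). The groups were far apart for both, and libraries of a group were close together. Stc2 had 32.5, 35.3 and 35.0 FPKM in si-Foxm1+Ang-II libraries, against 19.1, 19.5 and 19.1 FPKM in si-Foxm1 libraries (0.80 ± 0.04, adjusted p = 5.59e-09). Slc6a9 had 19.8, 21.4 and 19.5 FPKM in si-Foxm1+Ang-II libraries, against 11.8, 13.2 and 11.6 FPKM in si-Foxm1 libraries (0.69 ± 0.05, adjusted p = 2.16e-07). Slc1a4 had 29.5, 30.9 and 28.9 FPKM in si-Foxm1+Ang-II libraries, against 19.0, 19.2 and 19.0 FPKM in si-Foxm1 libraries (0.62 ± 0.04, adjusted p = 1.62e-07). A secreted stress protein and carriers of glycine, serine and alanine were thus higher in every library with the hormone.

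Trib3 had 39.8, 44.2 and 40.5 FPKM in si-Foxm1+Ang-II libraries, against 25.6, 28.3 and 26.8 FPKM in si-Foxm1 libraries (0.61 ± 0.07, adjusted p = 1.41e-05). Aldh1l2 had 32.5, 32.7 and 33.4 FPKM in si-Foxm1+Ang-II libraries, against 21.7, 23.0 and 20.9 FPKM in si-Foxm1 libraries (0.57 ± 0.04, adjusted p = 3.58e-07). Psph had 21.6, 22.4 and 23.0 FPKM in si-Foxm1+Ang-II libraries, against 14.9, 16.3 and 16.0 FPKM in si-Foxm1 libraries (0.48 ± 0.05, adjusted p = 9.49e-06). In none of these did the groups overlap.

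Atf4, Asns, Chac1 and Ddit3 rose too. Atf4 had 245, 249.7 and 243 FPKM in si-Foxm1+Ang-II libraries, against 208, 219 and 212 FPKM in si-Foxm1 libraries (0.20 ± 0.03, adjusted p = 4.94e-05). Asns had 94.6, 94.3 and 94.8 FPKM in si-Foxm1+Ang-II libraries, against 69.2, 70.9 and 73.0 FPKM in si-Foxm1 libraries (0.41 ± 0.03, adjusted p = 3.35e-07). Chac1 had 24.7, 25.2 and 23.4 FPKM in si-Foxm1+Ang-II libraries, against 20.1, 20.5 and 19.2 FPKM in si-Foxm1 libraries (0.28 ± 0.05, adjusted p = 0.000336). These again separated the groups. Ddit3 had 21.7, 20.6 and 21.6 FPKM in si-Foxm1+Ang-II libraries, against 18.4, 20.0 and 16.2 FPKM in si-Foxm1 libraries (0.22 ± 0.07, adjusted p = 0.0197). That call was lost without si-Foxm1+Ang-II replicate 1 (0.21, adjusted p = 0.056), without si-Foxm1+Ang-II replicate 3 (0.21, adjusted p = 0.0569) and without si-Foxm1 replicate 3 (0.14, adjusted p = 0.0961).

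By role, 5 of the 7 regulators, 4 of the 6 effectors, 6 of the 7 serine and one-carbon enzymes, all 4 of the other enzymes and 6 of the 7 transporters rose. The genes that fell were Cebpb, which fell by 0.20, Psat1, which fell by 0.22, Vldlr, which fell by 0.13, and Slc38a2, which fell by 0.08 on the log2 scale. Of these, Vldlr and Slc38a2 were not called under median-of-ratios scaling or quantile normalization. The call of Slc38a2 was also lost without si-Foxm1+Ang-II replicate 1 or 2 or si-Foxm1 replicate 1 or 3, and that of Vldlr without si-Foxm1+Ang-II replicate 1 or 3 or si-Foxm1 replicate 2. Slc7a1, which rose by 0.12 ± 0.04, lost its call without si-Foxm1+Ang-II replicate 2 or 3 or si-Foxm1 replicate 1. Cebpg (0.01 ± 0.04) and Sesn2 (-0.09 ± 0.08) were not called.

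The difference between the hormone's effects with and without the Foxm1 siRNA was tested as an interaction. It would include a transfection difference if Ang-II cells had no control siRNA, which the labels do not settle. The test was made over all genes. The interaction called 1 of the 31 genes, Phgdh, higher and 0 lower, where 0.403% of all genes tested were called higher and 0.519% lower. With median-of-ratios scaling it called 2 higher, Phgdh and Shmt2, and 0 lower (0.599% and 0.429% of all genes). Phgdh had 166, 163 and 164 FPKM in si-Foxm1+Ang-II libraries, against 140.4, 143 and 146 FPKM in si-Foxm1 libraries. It had 146, 143 and 150.1 FPKM in Ang-II libraries, against 150.1, 147 and 146 FPKM in si-NC libraries. Every si-Foxm1+Ang-II library was thus above every other library of the arm, whose ranges overlapped one another. The difference was 0.21 ± 0.04 (adjusted p = 0.0195). The call was lost without si-Foxm1+Ang-II replicate 2 (0.22, adjusted p = 0.0537), without si-NC replicate 1 (0.20, adjusted p = 0.0636) and without si-Foxm1 replicate 1 (0.19, adjusted p = 0.0619).

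The next genes did not pass. Cth had an interaction of 0.32 ± 0.07 (adjusted p = 0.0593), Shmt2 of 0.20 ± 0.04 (adjusted p = 0.0543) and Asns of 0.17 ± 0.04 (adjusted p = 0.102). The interaction was -0.03 ± 0.04 for Atf4 (adjusted p = 0.827), -0.16 ± 0.10 for Ddit3 (adjusted p = 0.498), -0.06 ± 0.10 for Trib3 (adjusted p = 0.861) and 0.00 ± 0.07 for Chac1 (adjusted p = 0.997). These standard errors leave room for differences of the size seen for Phgdh in Ddit3 and Trib3, so a missing call does not show that the hormone acted alike on them.

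**Figure D2:**
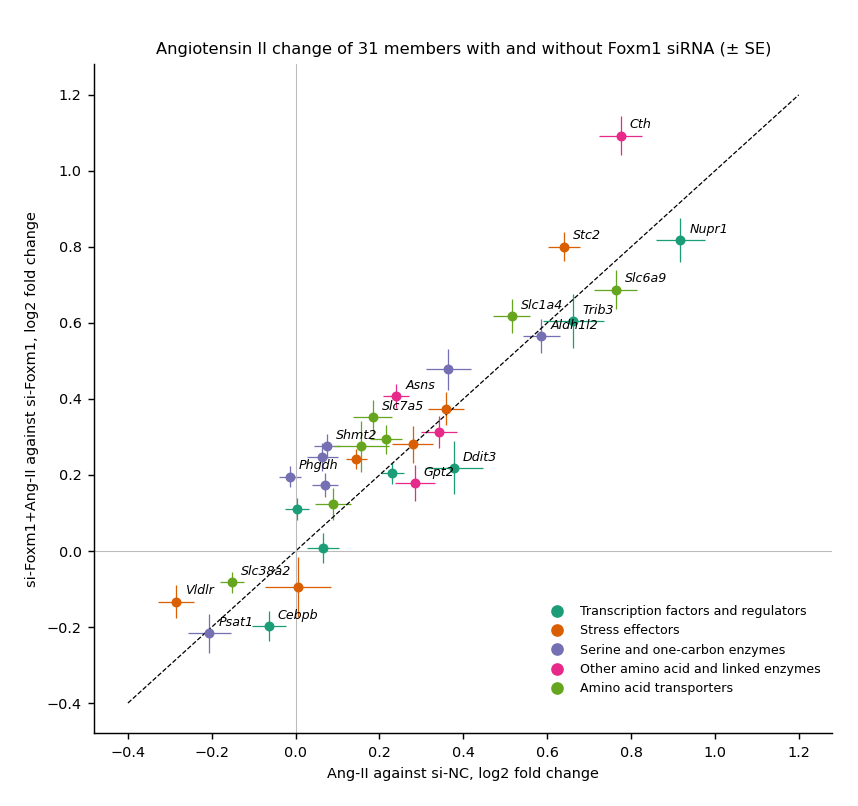
Log2 fold change with angiotensin for each of the 31 genes, without the Foxm1 siRNA (Ang-II against si-NC, x axis) and with it (si-Foxm1+Ang-II against si-Foxm1, y axis), on the log2(FPKM + 1) scale, with standard errors. The line marks equal change, and Cth (0.78 and 1.09) and Phgdh (-0.01 and 0.20) lie above it.

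With the Foxm1 siRNA and no hormone, members moved in both directions. In si-Foxm1 against si-NC, 7 genes rose and 10 fell, and 14 were not called. Over all genes tested 48.5% were called higher and 17.2% lower, and the median of all genes was 0.11, so the balance of this comparison depends on the scaling. The members' median was -0.04, a difference of -0.16 from that of all genes. With median-of-ratios scaling 1 member was called higher and 19 lower, where 26.4% of all genes were higher and 29.3% lower. The groups did not overlap for 17 of the 31 genes and for 71.0% of all genes tested, so groups that stood apart were common in this comparison. Of 12 cardiomyocyte markers 1 rose and 10 fell, with Actc1 at -2.23 ± 0.05, and all 7 macrophage and leukocyte markers tested fell. The part of these marker shifts in the members' changes was not tested.

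The clearest change was in Slc38a2, a sodium-coupled carrier that brings glutamine and other small neutral amino acids into cells. It had 71.0, 66.7 and 68.7 FPKM in si-Foxm1 libraries, against 138, 137 and 139 FPKM in si-NC libraries, a log2 fold change of -0.99 ± 0.03 (adjusted p = 1.67e-11). Slc1a5, the ASCT2 glutamine carrier, had 26.0, 27.5 and 28.6 FPKM in si-Foxm1 libraries, against 40.2, 42.6 and 39.9 FPKM in si-NC libraries (-0.56 ± 0.07, adjusted p = 6.44e-06). Neither gene had overlapping groups, and both falls were larger under median-of-ratios scaling (-1.12 and -0.69). Slc7a1 fell by 0.19 on the log2 scale and Slc1a4 by 0.12, though the call of Slc1a4 was lost when any of si-NC replicate 1 and si-Foxm1 replicates 1, 2 or 3 was left out. Of the 7 transporters 4 fell and 0 rose.

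Vldlr had 8.67, 8.93 and 8.63 FPKM in si-Foxm1 libraries, far below the 13.6 to 14.4 FPKM of si-NC libraries (-0.61 ± 0.04, adjusted p = 6.78e-08). Atf5 had 136, 132 and 137 FPKM in si-Foxm1 libraries, against 176, 167 and 167 FPKM in si-NC libraries (-0.33 ± 0.03, adjusted p = 5.53e-07). Nupr1 (-0.30 ± 0.06, adjusted p = 0.000558) and Cth (-0.28 ± 0.05, adjusted p = 0.000352) also fell, each with every si-Foxm1 library below every si-NC library. Cebpg fell by 0.19 and Asns by 0.11 on the log2 scale.

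The genes that rose were mainly mitochondrial enzymes, and most of these calls depended on the scaling. Of the 7 serine and one-carbon enzymes 4 rose and 0 fell, but 0 were higher and 2 lower under median-of-ratios scaling. Gpt2, which makes alanine and alpha-ketoglutarate from glutamate and pyruvate, had 7.09, 8.01 and 7.02 FPKM in si-Foxm1 libraries, against 4.47, 4.60 and 4.44 FPKM in si-NC libraries (0.60 ± 0.05, adjusted p = 1.84e-07). Psat1, which is cytosolic, had 49.7, 46.9 and 51.1 FPKM in si-Foxm1 libraries, against 42.0, 41.5 and 41.6 FPKM in si-NC libraries (0.23 ± 0.05, adjusted p = 0.00127). Pck2 (0.22 ± 0.04), Shmt2 (0.19 ± 0.03), Mthfd1l (0.18 ± 0.04), Mthfd2 (0.15 ± 0.03) and Cebpb (0.13 ± 0.04) rose as well. Of these 7 genes only Gpt2 kept its call under median-of-ratios scaling (0.49), while Psat1 had 0.11 there (adjusted p = 0.0806).

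Of Atf4, Ddit3, Trib3, Asns and Chac1, Asns fell and the others were not called without the hormone. The log2 fold change was -0.04 ± 0.03 for Atf4 (adjusted p = 0.218), -0.08 ± 0.07 for Ddit3 (adjusted p = 0.343), -0.09 ± 0.07 for Trib3 (adjusted p = 0.283) and 0.10 ± 0.05 for Chac1 (adjusted p = 0.0746), with overlapping groups in all 4. Under median-of-ratios scaling Atf4 (-0.17), Ddit3 (-0.20) and Trib3 (-0.22) were called lower, and Chac1 turned to -0.02. Chac1 was called higher with the replicate block, which takes the replicate numbers as a factor (0.10, adjusted p = 0.0286), and without si-NC replicate 1 (0.16, adjusted p = 0.0084). Trib3 was called lower without si-NC replicate 3 (-0.19, adjusted p = 0.0153) and under quantile normalization (-0.18, adjusted p = 0.0364), as was Ddit3 under quantile normalization (-0.18, adjusted p = 0.0337).

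**Figure D3:**
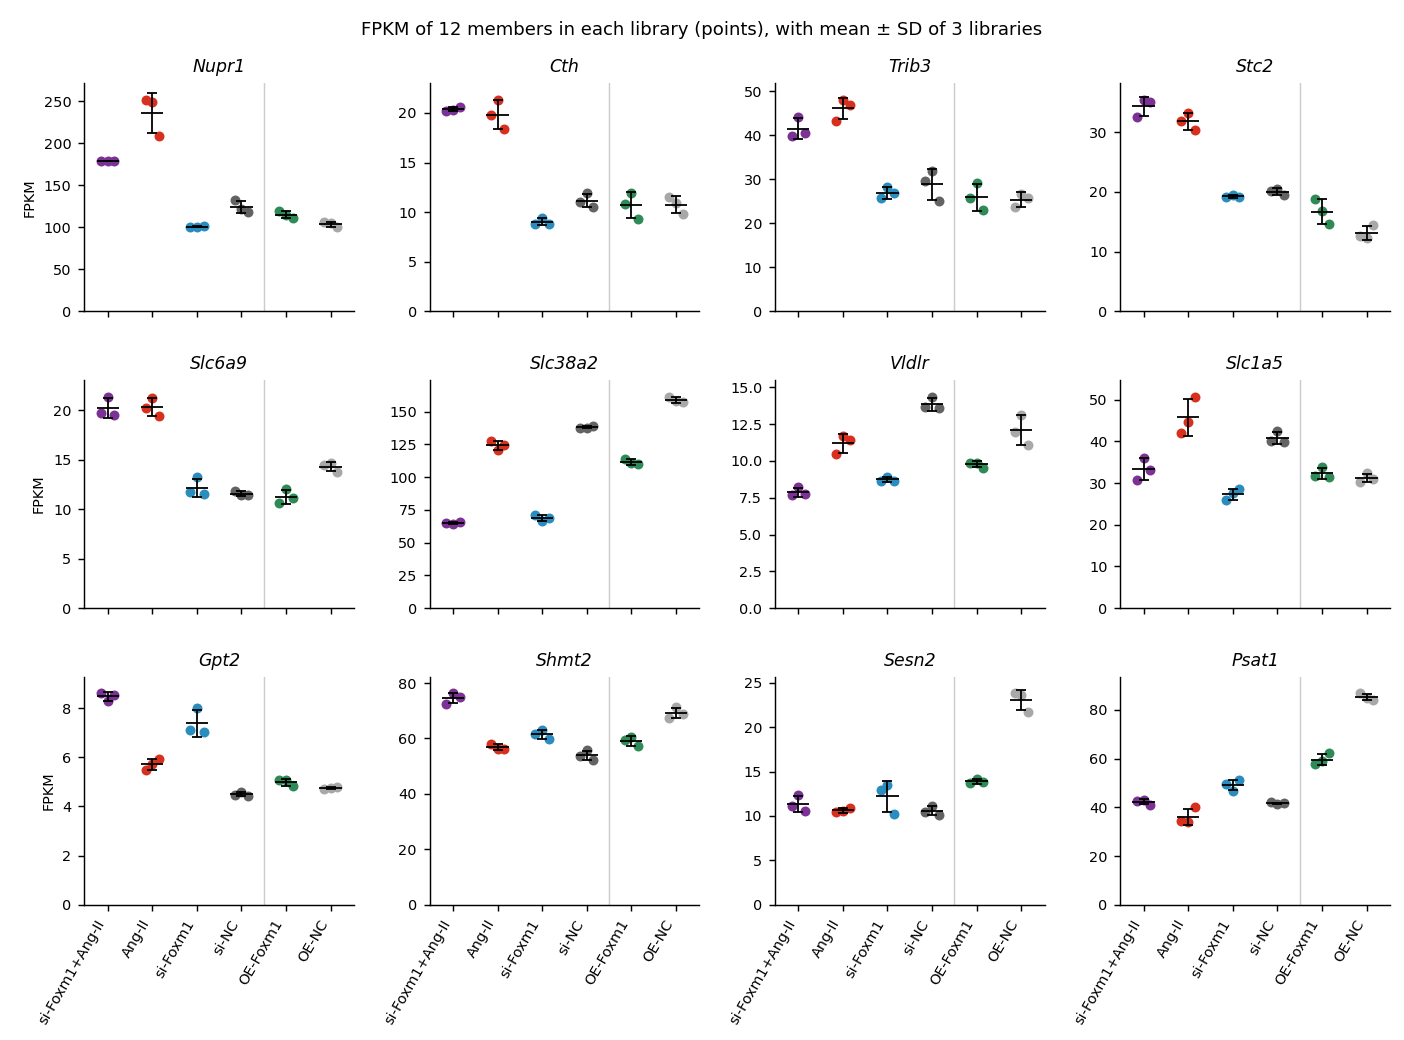
FPKM of 12 of the genes in each of the 18 libraries (points), by group, with the mean ± SD of 3 libraries. Slc38a2 lies at 64.3 to 71.0 FPKM in both groups with the Foxm1 siRNA and at 121 to 139 FPKM in Ang-II and si-NC libraries, while Nupr1 and Cth lie highest in the 2 groups with angiotensin.

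The siRNA was also compared under the hormone. In si-Foxm1+Ang-II against Ang-II, 10 genes rose and 8 fell, where 44.0% of all genes tested were called higher and 17.4% lower. The median was 0.04, against 0.09 over all genes tested. With median-of-ratios scaling 6 were higher and 11 lower (27.6% and 27.9% of all genes). The groups did not overlap for 19 of the 31 genes and for 64.5% of all genes tested. Of 12 cardiomyocyte markers 2 rose and 10 fell here, and all 7 macrophage and leukocyte markers tested fell. The part of these shifts in the members' changes was not tested either. Of the 7 genes that rose with the siRNA alone, 6 rose here, all but Cebpb (-0.00 ± 0.04). Of the 10 that fell, 7 fell here, all but Asns (0.06 ± 0.03), Cth (0.04 ± 0.05) and Slc1a4 (-0.02 ± 0.04). The matching shares over all genes were not computed. Among the 6 that rose in both, only Gpt2 was called higher under median-of-ratios scaling without the hormone.

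Slc38a2 had 64.8, 64.3 and 65.6 FPKM in si-Foxm1+Ang-II libraries, against 128, 121 and 124 FPKM in Ang-II libraries (-0.93 ± 0.03, adjusted p = 3.29e-11). Slc1a5 had 30.8, 36.1 and 33.1 FPKM in si-Foxm1+Ang-II libraries, against 41.9, 44.8 and 50.7 FPKM in Ang-II libraries (-0.45 ± 0.07, adjusted p = 5.72e-05). Vldlr had 7.66, 8.23 and 7.77 FPKM in si-Foxm1+Ang-II libraries, against 10.5, 11.7 and 11.4 FPKM in Ang-II libraries (-0.46 ± 0.04, adjusted p = 1.18e-06). These 3 genes were lower in every library with the siRNA. Nupr1, whose levels are given above, was 0.39 lower on the log2 scale (-0.39 ± 0.06, adjusted p = 5.55e-05), so that the highest Nupr1 levels of the arm were in cells with the hormone and without the siRNA.

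Gpt2 had 8.59, 8.28 and 8.53 FPKM in si-Foxm1+Ang-II libraries, against 5.48, 5.72 and 5.91 FPKM in Ang-II libraries (0.50 ± 0.05, adjusted p = 1.22e-06). Shmt2 had 72.6, 76.2 and 75.1 FPKM in si-Foxm1+Ang-II libraries, against 58.1, 56.3 and 56.0 FPKM in Ang-II libraries (0.39 ± 0.03, adjusted p = 2.64e-07). Mthfd1l had 11.7, 11.7 and 11.5 FPKM in si-Foxm1+Ang-II libraries, against 8.91, 8.57 and 9.02 FPKM in Ang-II libraries (0.36 ± 0.04, adjusted p = 2.27e-06). Mitochondrial enzymes of alanine, serine and formate were thus higher in every si-Foxm1+Ang-II library. Mthfd2 had 60.2, 60.1 and 61.2 FPKM in si-Foxm1+Ang-II libraries, against 52.5, 50.4 and 48.7 FPKM in Ang-II libraries (0.26 ± 0.03, adjusted p = 9.05e-06). Of the 7 serine and one-carbon enzymes 5 rose and 0 fell, with Psat1 at 0.22 ± 0.05 and Phgdh at 0.17 ± 0.03, and all 5 were also called higher under median-of-ratios scaling.

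Ddit3 fell by 0.24 on the log2 scale (adjusted p = 0.00979). Atf4 at -0.07 ± 0.03 (adjusted p = 0.0534), Trib3 at -0.15 ± 0.07 (adjusted p = 0.0901), Asns at 0.06 ± 0.03 (adjusted p = 0.123) and Chac1 at 0.11 ± 0.05 (adjusted p = 0.0749) were not called. The replicate block would call Atf4, Trib3 and Chac1 here (adjusted p = 0.0309, 0.0352 and 0.0287), and a fit to the compared groups alone would call the same 3 genes (adjusted p = 0.0421, 0.0314 and 0.0369). Under median-of-ratios scaling Atf4 (-0.17) and Trib3 (-0.25) were called lower. Trib3 was also called lower under quantile normalization (-0.21) and voom (-0.15), Atf4 with all 6 groups in the fit (-0.07), and Chac1 was called higher without si-Foxm1+Ang-II replicate 3 (0.13, adjusted p = 0.0482). Stc2 (0.11 ± 0.04, adjusted p = 0.0308) and Slc7a5 (0.11 ± 0.05, adjusted p = 0.047) were called with overlapping groups. The call of Stc2 was lost without any of Ang-II replicate 1 or 3 or si-Foxm1+Ang-II replicate 2 or 3, and that of Slc7a5 without any of Ang-II replicate 1 or 3 or si-Foxm1+Ang-II replicate 1 or 2.

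**Figure D4:**
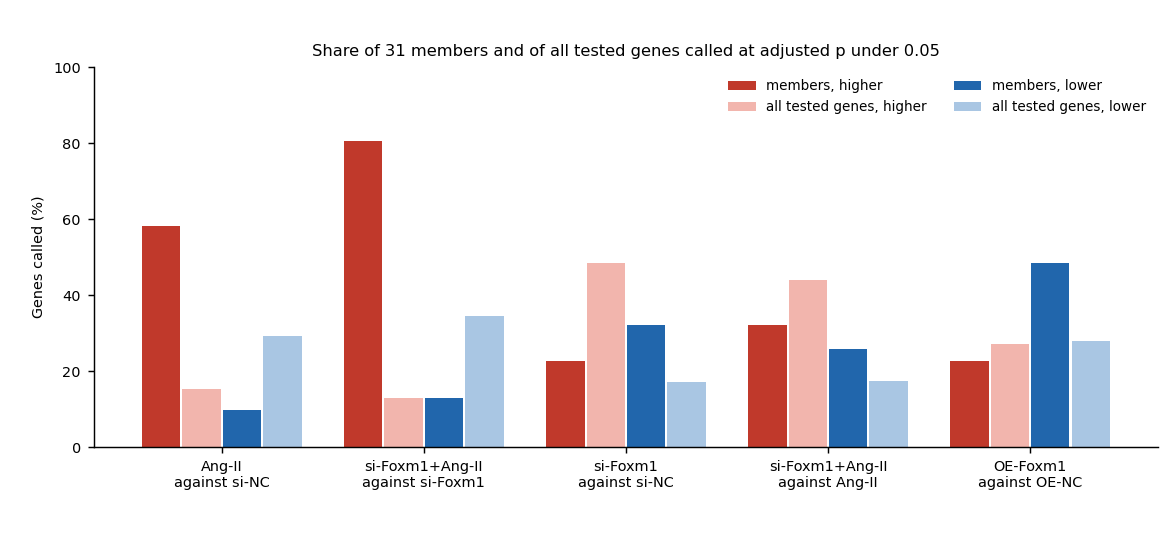
Percent of the 31 genes and of all genes tested that were called higher and lower in each comparison. In Ang-II against si-NC 15.2% of all genes were called higher and 29.2% lower, while 18 of the 31 members rose and 3 fell.

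More of the set was called lower than higher with overexpression. In OE-Foxm1 against OE-NC, 7 genes rose, 15 fell and 9 were not called, where 27.1% of the 11259 genes tested were called higher and 28.0% lower. The median was -0.07, against 0.00 over all genes tested. Counts were the same with median-of-ratios scaling (27.8% of all genes higher and 27.4% lower). The groups did not overlap for 23 of the 31 genes and for 62.2% of all genes tested. Foxm1 fragments from an introduced sequence and from the chromosomal gene cannot be separated in the table.

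Sesn2 had 13.7, 14.2 and 13.8 FPKM in OE-Foxm1 libraries, against 23.8, 23.6 and 21.7 FPKM in OE-NC libraries (-0.69 ± 0.04, adjusted p = 6.64e-07). Mthfd1l had 9.11, 10.1 and 9.67 FPKM in OE-Foxm1 libraries, against 14.1, 15.4 and 13.9 FPKM in OE-NC libraries (-0.54 ± 0.05, adjusted p = 1.31e-05). Psat1 had 57.8, 58.9 and 62.2 FPKM in OE-Foxm1 libraries, against 86.7, 85.0 and 84.2 FPKM in OE-NC libraries (-0.51 ± 0.03, adjusted p = 1.1e-06). All OE-Foxm1 libraries were below all OE-NC libraries for these genes. Slc38a2 had 114, 111 and 110.1 FPKM in OE-Foxm1 libraries, against 161, 158 and 157 FPKM in OE-NC libraries (-0.51 ± 0.03, adjusted p = 3.77e-07). Slc7a1 had 32.2, 33.3 and 32.8 FPKM in OE-Foxm1 libraries, against 42.2, 45.0 and 42.2 FPKM in OE-NC libraries (-0.39 ± 0.04, adjusted p = 9.57e-06). Of the 7 transporters 5 fell and 0 rose, and of the 7 serine and one-carbon enzymes 5 fell and 0 rose.

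Pck2 had 30.3, 32.4 and 32.0 FPKM in OE-Foxm1 libraries, against 20.0, 21.2 and 22.7 FPKM in OE-NC libraries (0.55 ± 0.05, adjusted p = 6.07e-06). Ddit3 had 19.0, 20.8 and 17.4 FPKM in OE-Foxm1 libraries, against 13.3, 15.7 and 12.8 FPKM in OE-NC libraries (0.42 ± 0.08, adjusted p = 0.000807). Atf5 had 170.5, 167 and 153 FPKM in OE-Foxm1 libraries, against 125, 126 and 131 FPKM in OE-NC libraries (0.36 ± 0.04, adjusted p = 4.48e-05). CHOP and ATF5 transcripts thus went up while those of Atf4, at 225, 221 and 217 FPKM in OE-Foxm1 libraries and 241, 247 and 238 FPKM in OE-NC libraries, went down (-0.13 ± 0.03, adjusted p = 0.00255). Chac1 had 21.2, 21.9 and 19.7 FPKM in OE-Foxm1 libraries, against 25.3, 25.6 and 24.1 FPKM in OE-NC libraries (-0.25 ± 0.04, adjusted p = 0.000763). Trib3 (0.03 ± 0.07, adjusted p = 0.784) and Asns (-0.04 ± 0.04, adjusted p = 0.375) were not called and their groups overlapped. Cebpb (0.19 ± 0.05), Nupr1 (0.15 ± 0.03), Stc2 (0.32 ± 0.08) and Eif4ebp1 (0.09 ± 0.03) rose. The call of Eif4ebp1 was lost without any of OE-Foxm1 replicate 1 or 2 or OE-NC replicate 1 or 3, and that of Slc7a5 (-0.13 ± 0.04) without OE-Foxm1 replicate 1 or OE-NC replicate 2.

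Several genes had levels in OE-NC that were far from those in si-NC, the control of the other arm, and the arms were not tested against each other. Sesn2 had 21.7 to 23.8 FPKM in OE-NC and 10.2 to 11.2 FPKM in si-NC, and Psat1 had 84.2 to 86.7 FPKM in OE-NC and 41.5 to 42.0 FPKM in si-NC. Of the 31 genes, 10 had their highest mean of the 6 groups in OE-NC and 6 their lowest. How many of all genes did so was not counted. Slc38a2 was lower with the siRNA and lower with overexpression than in the control of its own arm.

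Other genes of the pathway were counted by list, and each count is read against the share of all genes called in the same comparison. Of all genes tested, 15.2% were higher and 29.2% lower in Ang-II against si-NC, and 12.9% higher and 34.6% lower in si-Foxm1+Ang-II against si-Foxm1. The siRNA comparisons had 48.5% higher and 17.2% lower without the hormone, and 44.0% higher and 17.4% lower with it, and OE-Foxm1 against OE-NC had 27.1% higher and 28.0% lower. In OE-Foxm1 against OE-NC, median-of-ratios scaling gave the same counts for all 5 pathway lists.

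Of 14 genes for eIF2 kinases, eIF2 and its exchange factor and phosphatase, 4 rose and 1 fell in Ang-II against si-NC, led by Ppp1r15a, the inducible subunit that ends the response (0.51 ± 0.05), and Eif2ak3, which encodes the endoplasmic reticulum kinase PERK (0.28 ± 0.04). In si-Foxm1+Ang-II against si-Foxm1, 6 rose and 1 fell (Ppp1r15a 0.44 ± 0.05), and with median-of-ratios scaling the angiotensin counts were 7 and 1, and 9 and 1. With the siRNA 9 rose and 3 fell, among them Eif2b5 (0.27 ± 0.04) and the heme-regulated kinase gene Eif2ak1 (-0.31 ± 0.04), and under the hormone 8 rose and 2 fell (4 and 3, and 3 and 2, with median-of-ratios scaling). The 64.3% and 57.1% of the list that rose with the siRNA stood beside 48.5% and 44.0% of all genes. In OE-Foxm1 against OE-NC 1 rose and 11 fell, with Ppp1r15b, the constitutive phosphatase subunit, at -0.44 ± 0.04.

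Of 13 further genes known as ATF4 targets, 11 rose and 1 fell in Ang-II against si-NC. They included Bcat1, which starts the breakdown of branched-chain amino acids (0.84 ± 0.05), and Pycr1, an enzyme of proline synthesis (0.64 ± 0.05). In si-Foxm1+Ang-II against si-Foxm1, 8 rose and 1 fell, with Bcat1 at 0.97 ± 0.05 and Aldh18a1, which starts proline synthesis, at 0.35 ± 0.04 (11 and 1, and 10 and 1, with median-of-ratios scaling). With the siRNA 4 rose and 3 fell, and under the hormone 5 rose and 3 fell, a balance that turned to 2 and 6, and 1 and 6, with median-of-ratios scaling. Gdf15, a secreted stress hormone, was lower in both (-0.39 ± 0.06 and -0.42 ± 0.06). In OE-Foxm1 against OE-NC 3 rose and 7 fell. The cystine carrier Slc7a11 had 4.71, 6.01 and 5.21 FPKM in OE-Foxm1 libraries, against 13.4, 16.3 and 13.9 FPKM in OE-NC libraries (-1.30 ± 0.08), while Pycr1 rose by 0.66 ± 0.07.

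Cytosolic aminoacyl-tRNA synthetases, which load amino acids onto tRNAs, numbered 20. With Ang-II 10 rose and 0 fell, and with the hormone in siRNA-treated cells 11 rose and 0 fell, with Gars, the glycine enzyme, at 0.28 ± 0.03 and 0.27 ± 0.03. These counts stood beside 15.2% and 12.9% of all genes, and they were 15 and 18 higher and 0 lower on the median-of-ratios scale (22.2% and 22.1% of all genes higher). With the siRNA 13 rose and 1 fell in either setting, for example Kars, the lysine enzyme, at 0.29 ± 0.03 without the hormone and 0.34 ± 0.03 with it. These counts were 6 and 3 without the hormone, and 9 and 3 with it, under median-of-ratios scaling. The 65.0% that rose in either setting stood beside 48.5% and 44.0% of all genes. In OE-Foxm1 against OE-NC 1 rose and 15 fell, led by Rars, the arginine enzyme (-0.46 ± 0.03).

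Genes listed for the ATF6 and XBP1 branches, mostly endoplasmic reticulum chaperones with the transcription factor gene Xbp1 among them, numbered 12. Of these, 10 rose and 0 fell in each angiotensin comparison (10 and 0, and 11 and 0, with median-of-ratios scaling). The chaperone gene Hyou1 was at 0.46 ± 0.04 in Ang-II against si-NC and 0.59 ± 0.04 in si-Foxm1+Ang-II against si-Foxm1. With the siRNA 2 rose and 7 fell, among them the disulfide isomerase gene Pdia6 (-0.40 ± 0.04), and under the hormone 1 rose and 3 fell (0 and 8, and 0 and 7, with median-of-ratios scaling). The gene that rose under the hormone was the disulfide isomerase gene Pdia4 (0.08 ± 0.03), which turned to -0.02 on that scale and was not called. OE-Foxm1 against OE-NC had 7 higher and 1 lower, with Sdf2l1 at 0.54 ± 0.06.

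Of 8 cytosolic one-carbon genes, 1 rose and 4 fell in Ang-II against si-NC, with Shmt1, the cytosolic counterpart of Shmt2, at -0.71 ± 0.06. With the siRNA 6 rose and 0 fell, and under the hormone 7 rose and 0 fell (Shmt1 0.55 ± 0.06), with 5 and 1, and 4 and 1, under median-of-ratios scaling. In si-Foxm1+Ang-II against si-Foxm1, 1 rose and 3 fell. Median-of-ratios scaling gave 1 and 4, and 1 and 2, in the angiotensin comparisons. In OE-Foxm1 against OE-NC 1 rose and 4 fell.

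Promoters of the set were searched for short motifs on both strands in the 250 bases before each start listed for a gene. They were RefSeq promoters of build GRCm38.p6, which is not the authors' build. A gene was counted if any of its starts had a match. Promoters were found for 26 of the 31 genes, which leaves out Eif4ebp1, Aldh1l2, Cth, Slc7a5 and Slc1a5. The letters TGATGNAA, the core of the C/EBP-ATF composite element that ATF4 dimers bind, occurred in 5 of the 26 (19.2%) and in 397 of 14276 genes of the table with a promoter (2.78%). The ER stress element, CCAAT and CCACG with 9 bases between them, was found in 0 of the 26 (0.154% of genes) and the forkhead letters TGTTTAC in 0 of the 26 (2.84% of genes). A match is a description, not a site or a cause.

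The 5 promoters with the core are shown because they belong to genes described above: Nupr1 and Chac1, which rose in both angiotensin comparisons, Vldlr, which fell in both, Asns, a classic ATF4 target, and Pck2. Each sequence is written 5′ to 3′ on the gene's own strand, with the match in capitals. In Nupr1, Chac1, Vldlr and Pck2 the match lies on the opposite strand, so its letters are the reverse complement of the core. Vldlr had another start, with the window chr19:27216234-27216483, which held no match and is not shown. The windows are chr7:126625471-126625720 on the minus strand for Nupr1, chr2:119350992-119351241 on the plus strand for Chac1, chr19:27216770-27217019 on the plus strand for Vldlr, chr6:7693210-7693459 on the minus strand for Asns and chr14:55540016-55540265 on the plus strand for Pck2.
Nupr1: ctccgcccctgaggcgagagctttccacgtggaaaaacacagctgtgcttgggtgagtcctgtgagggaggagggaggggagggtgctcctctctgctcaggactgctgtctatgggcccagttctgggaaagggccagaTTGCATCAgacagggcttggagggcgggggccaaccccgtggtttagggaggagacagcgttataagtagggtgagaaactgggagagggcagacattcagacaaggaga
Chac1: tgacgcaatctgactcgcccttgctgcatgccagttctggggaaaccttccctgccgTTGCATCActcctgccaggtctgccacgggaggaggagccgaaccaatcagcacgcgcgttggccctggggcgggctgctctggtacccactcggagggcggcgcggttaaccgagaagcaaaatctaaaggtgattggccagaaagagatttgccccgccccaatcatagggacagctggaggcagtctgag
Vldlr: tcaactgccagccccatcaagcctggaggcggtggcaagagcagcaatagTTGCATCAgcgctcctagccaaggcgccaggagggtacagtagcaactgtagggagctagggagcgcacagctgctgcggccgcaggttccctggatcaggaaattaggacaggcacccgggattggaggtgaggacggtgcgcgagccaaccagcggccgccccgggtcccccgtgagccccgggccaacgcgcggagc
Asns: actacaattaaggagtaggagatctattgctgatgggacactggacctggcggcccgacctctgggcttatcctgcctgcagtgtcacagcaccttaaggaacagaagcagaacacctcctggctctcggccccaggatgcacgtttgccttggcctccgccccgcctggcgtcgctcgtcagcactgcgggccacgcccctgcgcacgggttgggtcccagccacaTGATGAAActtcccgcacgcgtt
Pck2: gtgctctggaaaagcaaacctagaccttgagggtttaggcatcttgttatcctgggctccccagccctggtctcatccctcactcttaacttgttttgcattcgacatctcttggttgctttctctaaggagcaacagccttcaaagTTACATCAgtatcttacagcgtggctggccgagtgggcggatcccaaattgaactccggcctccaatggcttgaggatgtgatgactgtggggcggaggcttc

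The match ends 103 bases before the start in Nupr1, 186 in Chac1, 193 in Vldlr, 16 in Asns and 96 in Pck2. Of the genes carrying it, Nupr1, Chac1, Asns and Pck2 rose and Vldlr fell in both angiotensin comparisons. Genes without it in this window rose too, such as Slc6a9 (0.76), Trib3 (0.66) and Stc2 (0.64) in Ang-II against si-NC, beside Nupr1 (0.92), Pck2 (0.34), Chac1 (0.28) and Asns (0.24) with it. Psat1 (-0.21) and Slc38a2 (-0.15), also without it, fell there. Cth (0.78) and Aldh1l2 (0.59) had no promoter to search. Whether the match bears on the change was not tested.

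Across all 6 groups the members differed in how far their levels ranged. Stc2 had the widest range of group means, 2.61-fold between si-Foxm1+Ang-II and OE-NC, followed by Slc38a2 at 2.45-fold, with its lowest mean in si-Foxm1+Ang-II and its highest in OE-NC, and by Psat1 at 2.36-fold, lowest in Ang-II and highest in OE-NC. Phgdh had the narrowest at 1.17-fold, and Atf4 stayed within 1.21-fold. Within the knockdown arm, 16 of the 31 genes had their highest group mean in si-Foxm1+Ang-II and 10 in Ang-II, while 16 had their lowest in si-Foxm1 and 11 in si-NC. The same counts over all genes were not made, so this order is not shown to be particular to the members.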

How the data were processed

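RNA sequencing gave 18 libraries of mouse NVCFs in 6 groups of 3, grouped by the sample titles. Per the labels' protocols, total RNA came from the mirVana kit, samples had an RNA integrity number of at least 7, and 4 μg went into TruSeq stranded mRNA libraries. Per the submitters' processing notes the tools were fastp, HISAT2 and HTSeq and the genome build mm39. What is not given in the sources used here is the tools' versions and settings, the gene annotation, the strand setting and the treatment of fragments that map to several places. Genes with near-identical copies or pseudogenes may therefore be miscounted. The deposited values are FPKM per gene and library, made by the authors, and 0 columns lacked a sample.

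Members were the table's rows with the 31 symbols. The members, role groups and pathway lists were chosen with earlier results of these data known, so patterns already seen in them are no independent support. FPKM plus 1 was put on the log2 scale with no further scaling. limma 3.58.1 (R 4.3.3) was fitted to group means of the 12 knockdown-arm libraries, and apart from them to the 6 libraries of the overexpression arm, with trended eBayes. A gene was tested if its mean over a fit's libraries reached 1 FPKM, with Benjamini-Hochberg adjustment over all of them and calls at adjusted p under 0.05. An exact permutation test of 3 against 3 cannot go below a two-sided p of 0.1.

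Named in full were Foxm1, the hub gene Atf4 with Ddit3, Trib3, Asns and Chac1, and in each comparison the 8 called members with the largest absolute fold change and groups that do not overlap (for the interaction, the 4 largest among called). Other members are within the counts, and are named with their fold change in some comparisons only. Pathway lists have counts, with at most 4 members of smallest p. Promoters shown are those of fully named members with the C/EBP-ATF core.

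Whole fragment counts were recovered from ratios of FPKM between libraries. All 17960 genes above 0 came out whole within 0.02, and their totals gave the depth. The alternatives tried were limma voom on the recovered counts, quantile normalization or median-of-ratios scaling between libraries, a pseudocount of 0.1, no filter or one at 0.1 FPKM, a fit to all 18 libraries or to just the compared groups, a replicate block, and leaving out each library in turn. Python 3.11.15, numpy 2.4.6, pandas 2.3.3 and matplotlib 3.10.9 were used. Of the pathway genes that met the rule for naming, 1 is not reported here by name.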

Additional observations from a re-analysis of the deposited data

Results flagged for a closer look

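Phgdh, the first enzyme of serine synthesis, was called by the interaction term of limma, for angiotensin changes with and without the Foxm1 siRNA. The log2 fold change was 0.20 ± 0.03 in si-Foxm1+Ang-II against si-Foxm1 and -0.01 ± 0.03 in Ang-II against si-NC, a difference of 0.21 ± 0.04 (adjusted p = 0.0195). All 3 si-Foxm1+Ang-II libraries lay above all 9 other libraries of the arm. The call was lost without si-Foxm1+Ang-II replicate 2 (adjusted p = 0.0537), si-NC replicate 1 (adjusted p = 0.0636) or si-Foxm1 replicate 1 (adjusted p = 0.0619). Whether Ang-II cells had a control siRNA is not stated in the labels, so a transfection difference could be part of this term.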

How the results depend on the processing

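Numbers of members called moved mainly with the scaling between libraries. In si-Foxm1 against si-NC, 1 member was higher and 19 were lower with median-of-ratios scaling, and in si-Foxm1+Ang-II against Ang-II 6 were higher. In si-Foxm1+Ang-II against si-Foxm1, members called lower numbered 2 under quantile normalization and median-of-ratios scaling, and 2 to 4 when each library was left out in turn. The interaction called 4 members higher under quantile normalization, 2 under median-of-ratios scaling, with all 6 groups in the fit and with voom, 3 with the replicate block, and 0 to 2 when each library was left out. Same-numbered libraries paired weakly at most: correlations of their deviations from the group means ran from -0.04 to 0.18. Those between replicate 2 libraries were all positive (0.04 to 0.18), and those of differently numbered libraries ran from -0.16 to 0.13. Whether same-numbered libraries share an origin is not stated in the labels, so the replicate block was kept as an alternative. The other counts of members called stayed within 1.5 times under it. Among the genes and comparisons named in full, directions turned in values near 0 that were not called: Ddit3 in si-Foxm1 against si-NC (-0.15 to 0.00067 when each library was left out), Chac1 there (-0.00091 under quantile normalization and -0.02 under median-of-ratios scaling), Asns in si-Foxm1+Ang-II against Ang-II (-0.04 under median-of-ratios scaling), Trib3 in OE-Foxm1 against OE-NC (-0.06 to 0.11 when each library was left out), and, in the interaction, Atf4 (0.0024 under quantile normalization and 0.0044 under median-of-ratios scaling), Trib3 (-0.13 to 0.04 when each library was left out) and Chac1 (-6.8e-06 with voom and -0.05 to 0.06 when each library was left out). Median-of-ratios scaling turned further members: in si-Foxm1 against si-NC Eif4ebp1 (0.03, to -0.10 and called lower, adjusted p = 0.00633), Ddit4 (-0.09), Aldh1l2 (-0.08) and Slc6a9 (-0.05), in si-Foxm1+Ang-II against Ang-II Slc3a2 (-0.09), Aldh1l2 (-0.07), Cth (-0.06), Ddit4 (-0.04), Psph (-0.02) and Sesn2 (-0.01), in Ang-II against si-NC Phgdh (0.04), and in the interaction Psat1 (0.02) and Aldh1l2 (0.01). Of these, Eif4ebp1 was the one called on either scale. Which scaling is right was not tested. A pseudocount of 0.1, either filter and the compared groups alone moved no count of members called by over 1.5 times. Counting error is largest for the members with the fewest fragments, of which the lowest count was 291.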
